A study of Mus musculus with 54 samples.

Results

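The nuclear genes for subunits of the mitochondrial respiratory chain and ATP synthase were followed through the differentiation of 3 lines of murine CGR8 embryonic stem cells (ESCs). Members were the genes whose platform symbol matches the naming pattern of complex I (Nduf), complex II (Sdh), complex III (Uqcr), complex IV (Cox4 to Cox8) or complex V (Atp5) subunits. Of 14104 genes with a probe set annotated to them alone, 80 were members: 34 by a complex I name, 4 of complex II, 8 of complex III, 17 of complex IV and 17 of complex V. Each gene was represented by the probe set with the highest mean over all 54 arrays. Cox7a2l matches the pattern but encodes a factor that joins complexes III and IV into supercomplexes rather than a regular subunit, and Ndufa4 carries a complex I name although its product is now placed in complex IV.

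The respiratory chain passes electrons from NADH (complex I) or succinate (complex II) through complex III to oxygen at complex IV, and complex V uses the resulting proton gradient to make ATP. A few complex IV subunits exist as pairs of isoforms, with a widely expressed form and a form found mainly in heart and skeletal muscle, lung or testis. Differentiating ESCs are known to shift from glycolysis towards oxidative metabolism, and cardiomyocytes are among the cells richest in respiratory chain.

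Wild-type cells (WT), cells carrying a scrambled short hairpin RNA (SCR) and cells carrying a short hairpin RNA against Mageb16 (KD), all from a male line of strain 129, were sampled undifferentiated (d0) and as hanging-drop embryoid bodies (EBs) on days 2, 4, 12, 15 and 22, with 3 Affymetrix whole-genome mouse arrays per group and 54 in all. KD and SCR cells are stable polyclonal lines selected for puromycin resistance after transfection, whereas WT cells were not transfected, so SCR is the closer control. Whether arrays of 1 group came from separate cultures is not stated in the labels, and the p values then measure only the spread between these arrays. The array numbered 3 lay between the other arrays of its group at 28.3% to 55.2% of probe sets, more often than either other array in 17 of the 18 groups, and if it is not independent the SDs and p values are too small. Days 12, 15 and 22 together are called late. Mageb16, a MAGE family gene and the target of the hairpin, had a log2 signal of 3.49 to 7.43 on the KD arrays, 8.87 to 10.15 on the SCR arrays and 6.98 to 9.99 on the WT arrays. KD and SCR did not overlap, and within each day KD lay below both. All 8 listed pluripotency markers (Pou5f1, Nanog and others) were measured, and their summed linear signal on late arrays was 1495 to 5725 in KD, 10736 to 16859 in SCR and 11494 to 16196 in WT. EBs are mixtures of cell types, in which fewer cells of a type and less RNA per cell cannot be told apart.

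Values are log2 RMA signals, on which 1 unit is a 2-fold difference. A level of one gene is never set against that of another, since probe sets differ in brightness. A member was called at a Benjamini-Hochberg adjusted p under 0.05 in limma and at least a 2-fold change. Smaller changes are described as passing at any size when the adjusted p alone was met.

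The subunit genes varied little between arrays of a group, with a median SD of 0.0796 on the log2 scale against 0.143 for all genes. Between the 18 groups 68 members ranged over less than 1 log2 unit, and 12 ranged over 1 unit or more. These 12 were Cox6a2, Cox6b2, Cox7a1, Cox7b2, Cox7c and Cox8b of complex IV, Ndufa3, Ndufa6, Ndufa13, Ndufb1 and Ndufb11 of complex I, and Uqcrh of complex III. The widest ranges belonged to Cox8b (2.76) and Cox6a2 (2.66), both muscle isoforms.

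**Figure D1:**
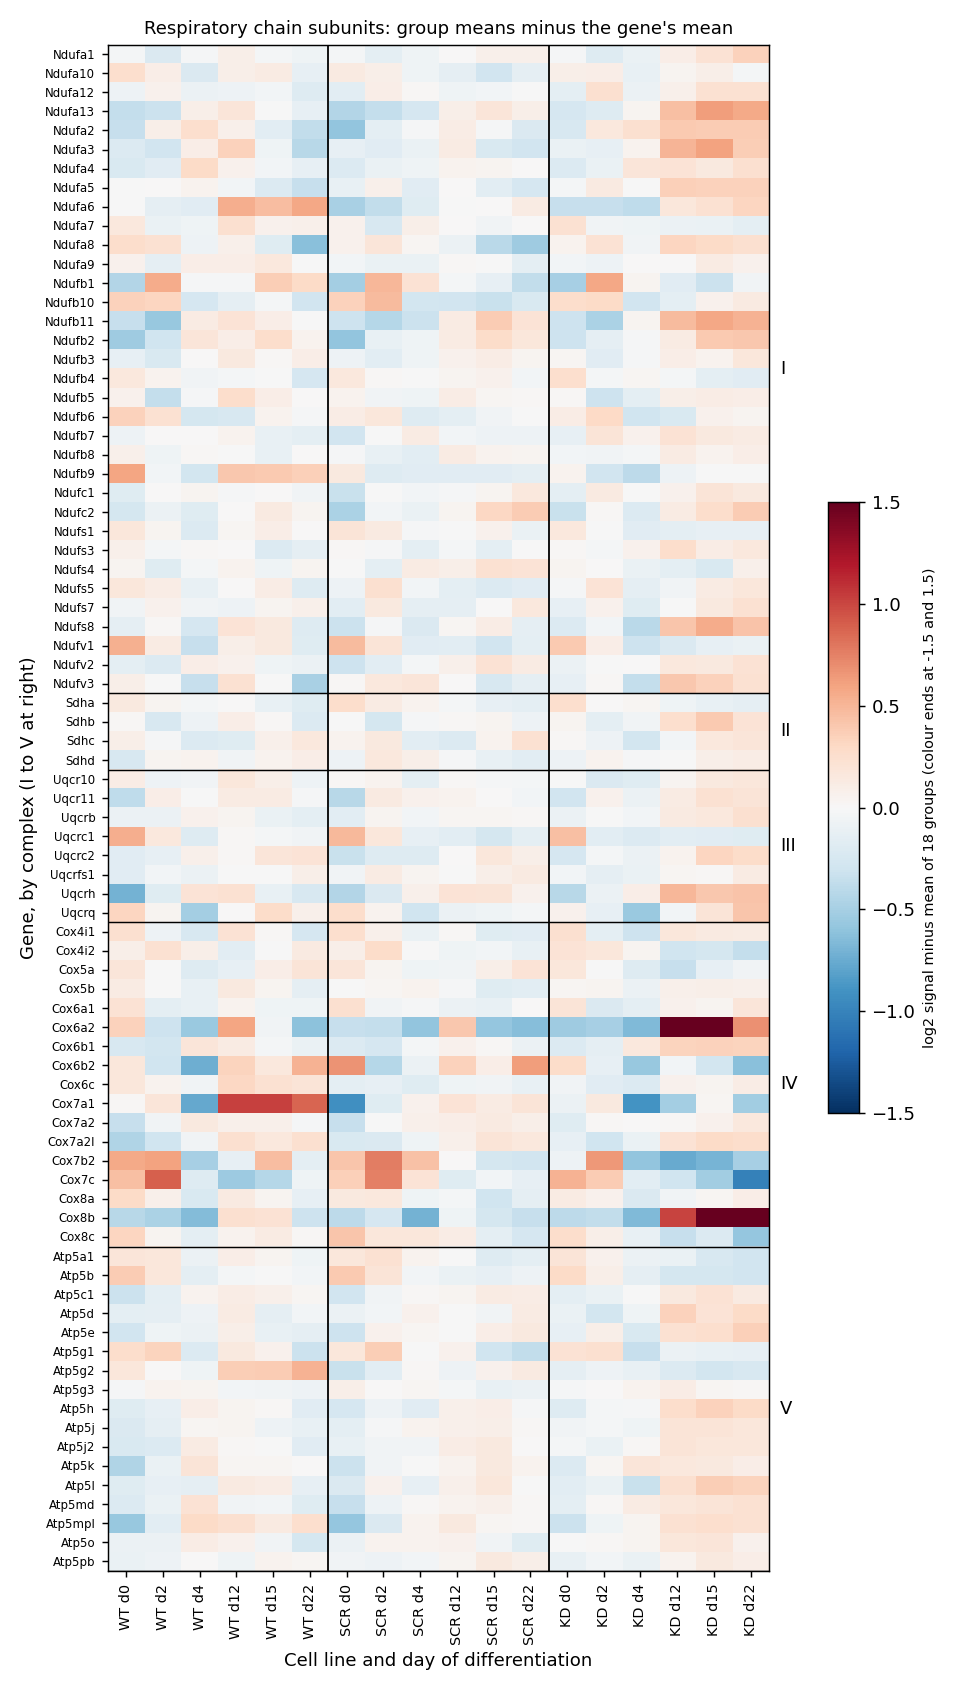
Heat map of the 80 respiratory chain members (rows, by complex I to V) in the 18 groups of line and day (columns). Colour is the group's mean log2 signal (n = 3 arrays) minus the gene's mean over the 18 groups, and colours end at -1.5 and 1.5. Most rows stay pale, and the 4 deepest cells are Cox8b in KD on days 15 and 22 and Cox6a2 in KD on days 12 and 15.

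Promoters of muscle and widely expressed isoforms are shown because these isoforms moved apart in these cells. Cox8b and Cox8a are the forms of 1 subunit, whereas Cox7a1 and Cox6a1 are shown without their partners. RefSeq promoter windows (build GRCm38.p6, 250 bases before to 50 after the start) were matched for 66 of the 80 members. The muscle isoform Cox6a2 was among the 14 members without a window. The 150 bases before the start are printed 5′ to 3′ in the gene's direction for muscle isoforms Cox8b (chr7:140900447-140900596, minus strand) and Cox7a1 (chr7:30184021-30184170, plus strand) and widely expressed isoforms Cox8a (chr19:7217617-7217766, minus strand) and Cox6a1 (chr5:115348959-115349108, minus strand). Capitals mark matches on either strand to the motif of NRF1, an activator of respiratory genes (GCGCANGCG), or of GABP and other ETS factors (CCGGAAG), or to an E-box, read by myogenic and other basic factors (CAGCTG). The oestrogen-related receptor motif (TCAAGGTCA), the YY1 motif (AAGATGGCG), the TATA box, by its usual letters (TATAAA), and the MEF2 motif were searched in the same way. For MEF2 only a strict form was searched (CTA, a fixed run of A or T, then TAG), so looser forms were not counted.
Cox8b: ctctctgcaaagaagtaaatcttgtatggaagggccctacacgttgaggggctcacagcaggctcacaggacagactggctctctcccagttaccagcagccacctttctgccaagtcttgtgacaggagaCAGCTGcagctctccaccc
Cox7a1: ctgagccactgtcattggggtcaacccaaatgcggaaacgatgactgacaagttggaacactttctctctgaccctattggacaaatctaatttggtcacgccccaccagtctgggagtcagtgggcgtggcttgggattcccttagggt
Cox8a: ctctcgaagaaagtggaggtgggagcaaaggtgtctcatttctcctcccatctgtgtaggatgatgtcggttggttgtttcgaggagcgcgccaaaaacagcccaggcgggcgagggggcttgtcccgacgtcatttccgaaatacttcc
Cox6a1: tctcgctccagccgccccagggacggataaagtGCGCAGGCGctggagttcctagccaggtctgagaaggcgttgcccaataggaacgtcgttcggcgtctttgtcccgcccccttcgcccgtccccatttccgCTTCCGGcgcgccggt
The Cox8b stretch held the E-box letters from position -19 relative to the start, and Cox6a1 held the NRF1 letters from -117 and the ETS letters from -16. No match lay in the stretches of Cox7a1 and Cox8a, although in Cox8a the ETS letters began at -5 and ran past the start. Over the whole window the NRF1 letters were present in 25.8% of the members' promoters and 6.47% of all 27025 promoters, and the ETS letters in 24.2% and 9.12%. The YY1 letters were in 7.58% against 1.49%, and those of oestrogen-related receptors, found in Atp5g3 and Sdhd, in 3.03% against 0.407%. The E-box was in 9.09% of members' promoters against 16.1% of all and the TATA box in 12.1% against 14.2%, while the MEF2 motif was in 0% against 0.566%. Within the 150 bases nearest to the start the NRF1 letters were in 13.6% of members' promoters against 4.48% of all, the ETS letters in 13.6% against 5.68%, and the YY1 letters in 0% against 0.381%. These are matches of letters and not binding sites, and no test was made of the shares.

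The first comparison asked how the chain changed from undifferentiated cells to late EBs within each line. Most members moved, in both directions, as did most genes at large, and the members' changes were small. In WT 32 members (40%) were higher and 27 (33.75%) lower at any size, where 37.6% and 28.7% of all genes were. In SCR 36 (45%) were higher and 22 (27.5%) lower, against 40.7% and 32.4% of genes. In KD 46 (57.5%) were higher and 21 (26.25%) lower, against 45.4% and 37.5% of genes. The median log2 change over members was 0.02 in WT, 0.08 in SCR and 0.18 in KD, beside 0.04, 0.04 and 0.08 over all genes. Centring each array on its own median turned the members' medians to -0.11, -0.08 and -0.04, as it shifted all genes by -0.13, -0.16 and -0.22.

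Changes of 2-fold were rare among the subunits. None of the 80 was called in WT, where 11.7% of genes were called higher and 3.26% lower. In SCR the 1 called member, Cox7a1, was higher, against 15.2% of genes higher and 5.2% lower. In KD Cox8b and Cox6a2 were called higher and Cox7c lower, against 22.6% and 11.4% of genes.

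Some subunits moved the same way in all 3 lines, about as often as genes at large. From d0 to late, 26 of the 80 members passed as higher in every line and 13 as lower in every line, where 26.1% and 20.2% of genes did. These shares are not far apart, so the values below describe single members and not a trait of the chain. Complex I had 10 higher and 3 lower, complex II none higher and 1 lower, complex III 4 higher and 1 lower, complex IV 3 higher and 5 lower, and complex V 9 higher and 3 lower. The lines share no day 0 arrays, so these are separate comparisons. In the order WT, SCR and KD, the changes of each named member are given below.

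Members that fell in every line are given first. Ndufv1, the complex I subunit that binds NADH, stood at 10.98 to 11.09 on the d0 WT arrays, 10.94 to 11.05 on SCR and 10.89 to 10.98 on KD. Late arrays lay at 10.31 to 10.76 in WT, 10.21 to 10.50 in SCR and 10.21 to 10.48 in KD, below d0 without overlap. The log2 change was -0.52, -0.68 and -0.55, and the other 2 probe sets of the gene fell alike (-0.53 and -0.65 in KD). Ndufs1, an iron-sulphur core subunit, changed by -0.13, -0.21 and -0.29. Uqcrc1, a core protein of complex III, changed by -0.57, -0.67 and -0.62. Sdha, the flavoprotein that oxidises succinate, changed by -0.24, -0.36 and -0.35. Atp5b and Atp5a1, the beta and alpha subunits of the ATP synthase head, changed by -0.41, -0.49 and -0.56, and by -0.15, -0.28 and -0.40. A second probe set of Atp5a1 gave -0.03, -0.22 and -0.04, so the fall in WT and KD rests on the first. Atp5g1, a gene for the membrane ring subunit c, changed by -0.30, -0.37 and -0.33. Ndufb10, an accessory subunit, changed by -0.50, -0.63 and -0.25. In a grouping by role made after the values were seen, the 6 core subunits of complex I split into 1 higher and 3 lower in WT, 3 and 2 in SCR, and 4 and 2 in KD. The iron-sulphur core subunit Ndufs8 (0.18, 0.32 and 0.67) and the Rieske protein Uqcrfs1 (0.20, 0.12 and 0.10) rose in every line.

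Members that rose in every line included the following. Uqcrh, the hinge protein of complex III, lay at 10.76 to 11.52 on WT d0 arrays, 11.26 to 11.62 on SCR and 11.49 to 11.52 on KD, and at 11.59 to 12.19, 11.88 to 12.20 and 12.31 to 12.47 on late arrays. Every late array was above every d0 array of its line, with changes of 0.67, 0.59 and 0.85. The complex I accessory subunits Ndufb11 (0.45, 0.56 and 0.84), Ndufa13 (0.37, 0.55 and 0.81), Ndufb2 (0.67, 0.77 and 0.62), Ndufc2 (0.32, 0.71 and 0.59) and Ndufa6 (0.54, 0.53 and 0.59) rose. So did Uqcr11 (0.46, 0.43 and 0.47) and the core protein Uqcrc2 (0.30, 0.43 and 0.47) of complex III. In complex V the small membrane proteolipid Atp5mpl rose by 0.78, 0.64 and 0.56 and subunit e, Atp5k, by 0.48, 0.40 and 0.34. Atp5l, subunit g, rose by 0.23, 0.30 and 0.47 and Atp5h, subunit d of the stator stalk, by 0.15, 0.30 and 0.49. Atp5c1, the gamma subunit, rose by 0.39, 0.38 and 0.31 on its brightest probe set, but another probe set of it passed in the opposite direction in all 3 lines. The supercomplex factor Cox7a2l rose by 0.67, 0.37 and 0.37.

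**Figure D2:**
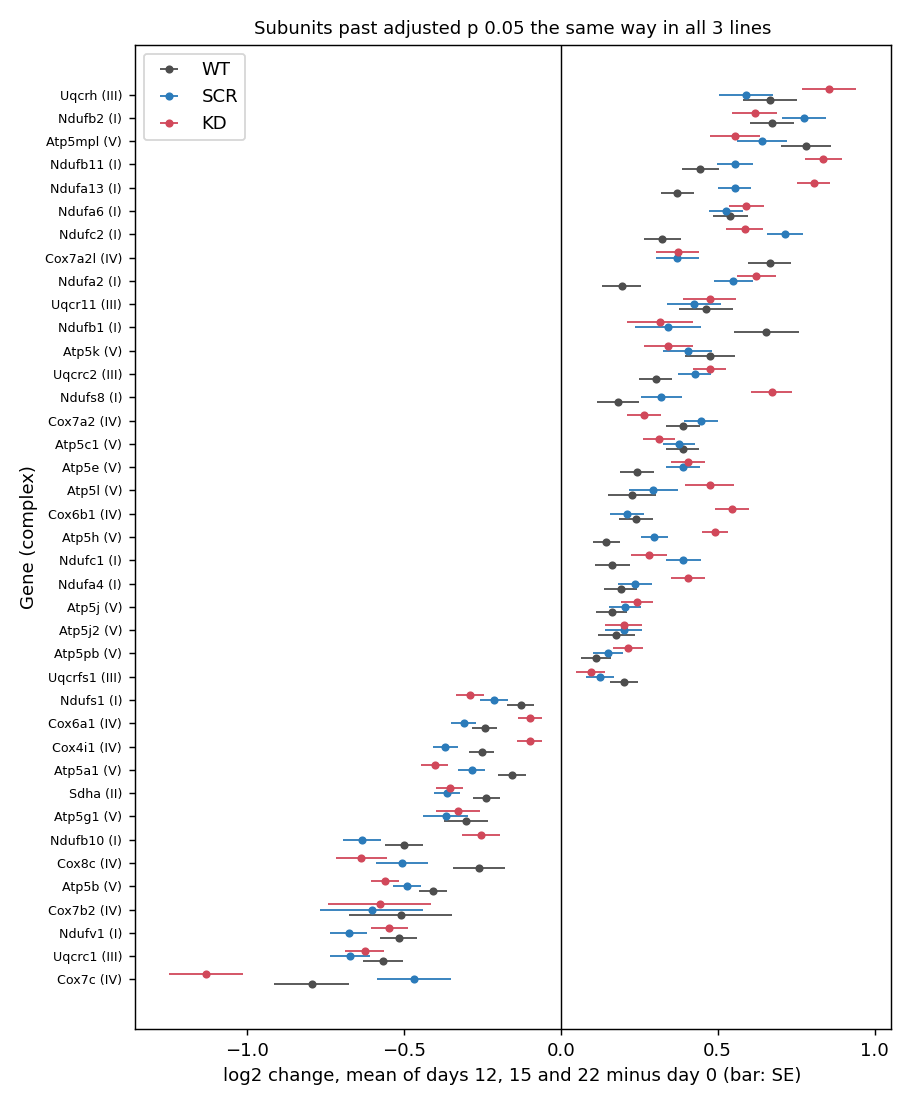
Members that passed the same way in WT, SCR and KD. Points are log2 changes from day 0 to the mean of days 12, 15 and 22 with bars of 1 SE, fitted on all 54 arrays. Uqcrh, Ndufb2 and Atp5mpl lie at the top of the 26 that rose, and Cox7c, Uqcrc1 and Ndufv1 at the bottom of the 13 that fell.

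Complex IV stood out by its isoforms, of which 7 are tissue-restricted. Cox6a2, the heart and skeletal muscle form of subunit 6a, is the first of these. Its log2 signals on KD arrays were 5.34, 5.40 and 5.68 on d0, 5.34, 5.40 and 5.76 on day 2, 5.10, 5.23 and 5.67 on day 4, 7.38, 7.60 and 8.17 on day 12, 7.76, 7.97 and 8.24 on day 15, and 6.63, 6.67 and 6.77 on day 22. SCR arrays held 5.57, 5.60 and 5.81 on d0, 5.94, 6.40 and 6.88 on day 12, 5.29, 5.39 and 5.60 on day 15, and 5.21, 5.31 and 5.57 on day 22. WT arrays held 5.76, 6.36 and 6.91 on d0, 6.26, 6.63 and 6.90 on day 12, 5.88, 5.92 and 6.04 on day 15, and 5.08, 5.44 and 5.63 on day 22. Within each late day the KD arrays lay above all SCR and WT arrays, while across days the lowest KD arrays (day 22) overlapped the highest of SCR and WT (day 12). Cox6a2 rose in KD from d0 to late by 1.99 ± 0.18 (SE, limma adjusted p = 2.0e-13). It was higher in late KD than in SCR by 1.73 ± 0.12 (3.33-fold, limma adjusted p = 6.4e-16) and than in WT by 1.49 ± 0.12. In SCR it was 0.75 above d0 on day 12, but over the late days the change was 0.07 in SCR and -0.37 in WT, with limma adjusted p = 0.72 and 0.067. The other probe set of the gene, which was dim, gave 1.77 for KD against SCR.

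Cox8b, the muscle form of subunit 8, was also highest in KD on day 15. Its KD signals were 4.61, 4.66 and 4.71 on d0, 4.18, 4.41 and 4.59 on day 4, 5.77, 6.12 and 6.32 on day 12, 7.03, 7.12 and 7.19 on day 15, and 6.61, 6.95 and 7 on day 22. Late SCR arrays lay between 4.61 and 5.20 and late WT arrays between 4.61 and 5.51. No late KD array overlapped those of the other lines. The SCR and WT levels were not far above the lower quartile of the arrays (4.23 to 4.51), so the size of the folds is less certain than their direction. The rise in KD was 2.02 ± 0.13 (SE, limma adjusted p = 8.7e-18), and late KD exceeded SCR by 1.85 ± 0.09 (3.60-fold, limma adjusted p = 3.5e-21) and WT by 1.57 ± 0.09. The difference from SCR was 1.08 on day 12, 2.32 on day 15 and 2.14 on day 22. In WT the gene was 0.66 above d0 on day 12 and 0.64 on day 15, both passing, and back to 0.11 on day 22.

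Cox7a1, the muscle form of subunit 7a, went another way. Its WT signals were 6.91, 6.92 and 7.06 on d0, 6.11, 6.19 and 6.23 on day 4, 7.59, 8.11 and 8.20 on day 12, 7.85, 8 and 8.06 on day 15, and 7.78, 7.81 and 7.87 on day 22. SCR signals were 5.87, 6.09 and 6.11 on d0, 6.86, 7.01 and 7.14 on day 4, 7.05, 7.15 and 7.23 on day 12, 6.98, 7.09 and 7.11 on day 15, and 6.98, 7.13 and 7.31 on day 22. KD signals were 6.72, 6.90 and 6.94 on d0, 5.81, 6.06 and 6.26 on day 4, 6.26, 6.44 and 6.61 on day 12, 6.74, 7.06 and 7.10 on day 15, and 6.20, 6.48 and 6.58 on day 22. Late WT arrays were therefore above all others, and KD overlapped SCR on day 15 only among the late days. The change from d0 to late was 0.96 in WT, 1.09 in SCR and -0.25 in KD. Late KD was below WT by 1.31 ± 0.07 (SE, limma adjusted p = 5.1e-20) and below SCR by 0.51 ± 0.07, and SCR was below WT by 0.80 ± 0.07. The lines already differed at d0, where SCR lay below both KD and WT without overlap.

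**Figure D3:**
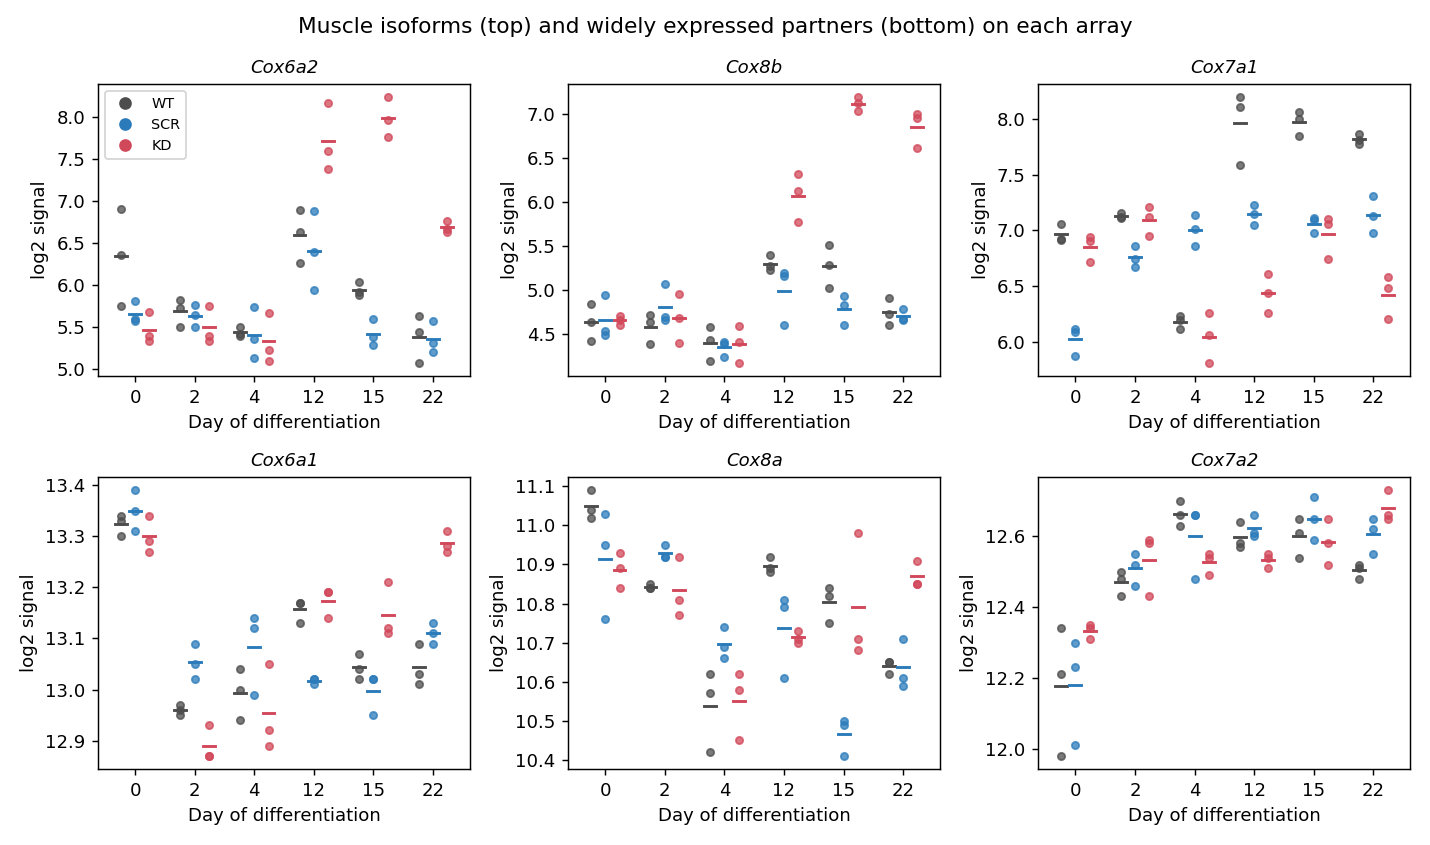
Log2 signal on each of the 54 arrays (points) and group means of 3 arrays (short lines) by day, for WT, SCR and KD. Top panels show muscle isoforms and bottom panels the widely expressed partners, each on its own axis. Cox6a2 and Cox8b are highest in late KD EBs, Cox7a1 is highest in late WT EBs, and the axes of the partners Cox6a1, Cox8a and Cox7a2 span less than 1 log2 unit.

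The widely expressed partners moved little. Between late KD and SCR, Cox6a1 differed by 0.16 and Cox8a by 0.18, both passing, and Cox7a2 by -0.03 with a limma adjusted p of 0.53. The difference between the isoforms of a subunit was tested on each array by exact permutation of the line labels within the late days, two-sided, in 18 tests with 0.00025 as the smallest p that 8000 arrangements allow. The difference Cox6a2 minus Cox6a1 was larger in KD than in SCR by 1.57 and Cox8b minus Cox8a by 1.67, each at the smallest p (0.00045 adjusted over the 18 tests). Cox7a1 minus Cox7a2 was smaller in KD than in WT by -1.34 at that p, smaller than in SCR by -0.48 (exact permutation p = 0.002, 0.003 adjusted), and smaller in SCR than in WT by -0.86. These tests concern the change of a difference between lines and not which isoform was the more abundant.

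Isoforms known from testis, Cox6b2, Cox7b2 and Cox8c, and the lung form Cox4i2 were lower in late KD. Cox6b2 signals on late arrays ran from 6.61 through a median of 7.06 to 7.52 in KD, from 7.35 through 7.70 to 8.19 in SCR and from 7.38 through 7.66 to 7.98 in WT, with overlap at the edges. Late KD was below SCR by 0.67 ± 0.06 (SE, limma adjusted p = 4.2e-12), and on day 22 the difference was -1.25 without overlap. Relative to its partner Cox6b1, which was higher in KD by 0.34, Cox6b2 was lower in KD than in SCR by -1.01 and than in WT by -1 (exact permutation p = 0.00025 for both, 0.00045 adjusted). Cox8c was below SCR by 0.28, Cox7b2 by 0.47 and Cox4i2 by 0.23, and the pairs Cox8c minus Cox8a (-0.46) and Cox4i2 minus Cox4i1 (-0.49) reached the same smallest p. The partner Cox4i1 was higher by 0.26. Cox4i2 lay under the lower quartile of the array on 8 of 9 late KD arrays, so its difference is uncertain in size. Cox7b2 was dim, with a mean of 3.39 under the lower quartile of the arrays (4.23 to 4.51).

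Cox7c, a small subunit with no isoform in the list, fell in every line, and over the late days most in KD. Signals on d0 were 7.35, 7.51 and 7.60 in WT, 7.24, 7.27 and 7.66 in SCR, and 7.5, 7.55 and 7.61 in KD. On day 22 they were 6.94, 6.97 and 7.02 in WT, 6.77, 6.89 and 7.08 in SCR and 5.91, 5.96 and 6.20 in KD. The day 22 KD arrays lay below all arrays of the other lines on that day. Against WT, KD differed by 0.24 on day 12, -0.10 on day 15 and -0.95 on day 22, of which the last alone passed. The change to late was -0.79 in WT, -0.47 in SCR and -1.13 ± 0.12 in KD (SE, limma adjusted p = 2.3e-11). A second probe set gave -0.98, -0.42 and -1.38. Only these 2 probe sets, with means of 7.04 and 5.49, were annotated to the gene alone, so the fall is that of these probe sets.

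Markers of cardiomyocytes were higher in late KD, as Cox6a2 and Cox8b were, while Cox7a1 was lower. All 10 listed cardiomyocyte markers were measured, and all 10 were higher in late KD than in SCR at any size, 8 of them by 2-fold. Their summed linear signal on late arrays was 4917 to 19247 in KD, 377 to 7323 in SCR and 476 to 6382 in WT, and Nppa lay under the lower quartile of every late array in each line. By day it was 13694 to 14567 on day 12, 14905 to 19247 on day 15 and 4917 to 8594 on day 22 in KD. In WT it was 6031 to 6382 on day 12 and 476 to 576 on day 22. Of 8 skeletal muscle markers 7 were measured. Their summed signal was lower in KD than in SCR on day 12 (195 to 219 against 945 to 1138) and day 15 (245 to 255 against 690.0 to 751) and higher on day 22 (1664 to 1855 against 511 to 655). In undifferentiated cells this sum was already 1125 to 1189 in KD, 1297 to 1471 in SCR and 1799 to 2034 in WT. The list therefore did not read skeletal muscle alone. Myog and Tnnt3 were under the lower quartile on all late SCR and WT arrays. Of 6 brown fat markers 4 were measured, with sums of 65.0 to 106 in KD and 49.5 to 66.9 in SCR, and Elovl3 and Ppara were under the lower quartile in all lines. For Cox6b2, Cox7b2 and Cox8c, the 6 germ cell markers summed to 126 to 540 in late KD, 1338 to 4103 in SCR and 1092 to 3562 in WT. In undifferentiated cells these markers summed to 1257 to 1529 in KD, 1152 to 1881 in SCR and 1188 to 2132 in WT. The germ cell list therefore gave signal in pluripotent cells too, and Cox6b2 and Cox8c had their highest group mean in SCR at d0. Liver markers (8 of 8, 14005 to 55219 in KD against 304 to 3908 in SCR) and macrophage markers (4 of 4, 2039 to 3814 against 218 to 364) differed too. The neural list was lower in KD than in SCR for 6 of 6 genes (187 to 2235 against 784 to 4053). In late WT the neural sum was lower still, at 152.5 to 379, with medians of 225 in WT, 738 in KD and 2265 in SCR. Of 4 erythroid markers 3 were measured and higher in KD than in SCR, with overlapping sums (175 to 5501 against 77.0 to 1377). The part of these cells in the differences between the lines was not tested.

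The comparison of late KD with late SCR set the knockdown line against the control line that also carries a hairpin. KD and SCR are single lines, so an effect of Mageb16 knockdown and other differences between the lines cannot be told apart. More subunits were higher than lower. At any size 47 of 80 were higher and 13 lower, where 38.1% and 39% of genes were, and by 2-fold 2 were higher (Cox8b and Cox6a2) and none lower, against 10.1% and 4.88% of genes. Complex I had 21 higher and 3 lower of 34, complex II 2 and 0 of 4, complex III 6 and 0 of 8, complex IV 9 and 7 of 17 and complex V 9 and 3 of 17. The median difference over members was 0.13, beside -0.02 over all genes. The median signal of the 80 members on a late array was 11.07 to 11.23 in KD and 10.86 to 11.06 in SCR, and 10.82 to 11.10 in WT. KD and SCR were narrowly apart here, before any centring. The median of all probe sets on these arrays was 6.18 to 6.26 in KD and 6.09 to 6.2 in SCR. By day, the median difference between KD and SCR was 0.02 on d0, -0.03 on day 2, -0.08 on day 4, 0.09 on day 12, 0.15 on day 15 and 0.18 on day 22. Centring each array on its own median lowered the late median to 0.06 and the count of higher members to 31, with 16 lower.

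In complex I the largest differences were in accessory subunits. Ndufa8 ran from 9.93 through a median of 10.09 to 10.24 on late KD arrays, from 9.17 through 9.41 to 9.75 in SCR and from 9.07 through 9.64 to 9.92 in WT. The KD arrays were above all those of both controls, and the difference from SCR was 0.63 ± 0.04 (SE, limma adjusted p = 2.2e-17). The gene fell from d0 to late in WT (-0.51) and SCR (-0.41) and rose in KD (0.23). Ndufa3 ran from 11.42 through 11.60 to 11.79 in KD and from 10.79 through 10.87 to 11.29 in SCR, again without overlap, with a difference of 0.62, and a second bright probe set gave 0.65. Ndufa5 differed by 0.48, the core subunit Ndufs8 by 0.46, Ndufa13 by 0.43 and Ndufa2 by 0.42, each without overlap of arrays. The 3 that were lower, Ndufs4 (-0.27), Ndufs1 (-0.12) and Ndufa7 (-0.10), differed by less, and Ndufs4 had probe sets that disagreed in other comparisons.

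In complexes II, III and V no member differed by more than 0.29 in size. Sdhb, the iron-sulphur subunit of complex II, ran from 11.01 to 11.27 in late KD and from 10.73 to 10.95 in SCR, a difference of 0.29, and the membrane anchor Sdhd differed by 0.16. A second, dimmer probe set of Sdhd gave -0.05, so its difference rests on the first. In complex III Uqcrh differed by 0.29, Uqcrq by 0.25 and Uqcr11 by 0.18. In complex V the stalk subunits Atp5d (0.26) and Atp5h (0.25) and subunit g, Atp5l (0.24), were higher. Lower were Atp5g2 (-0.28), 1 of 3 genes for subunit c, and the head subunits Atp5b (-0.17) and, on its brightest probe set, Atp5a1 (-0.10). A second bright probe set of Atp5a1 passed in the opposite direction (0.14), so the direction for this gene is not settled. Atp5b ran from 11.91 to 12.08 in late KD and from 12.09 to 12.35 in SCR, so that its arrays did not overlap.

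**Figure D4:**
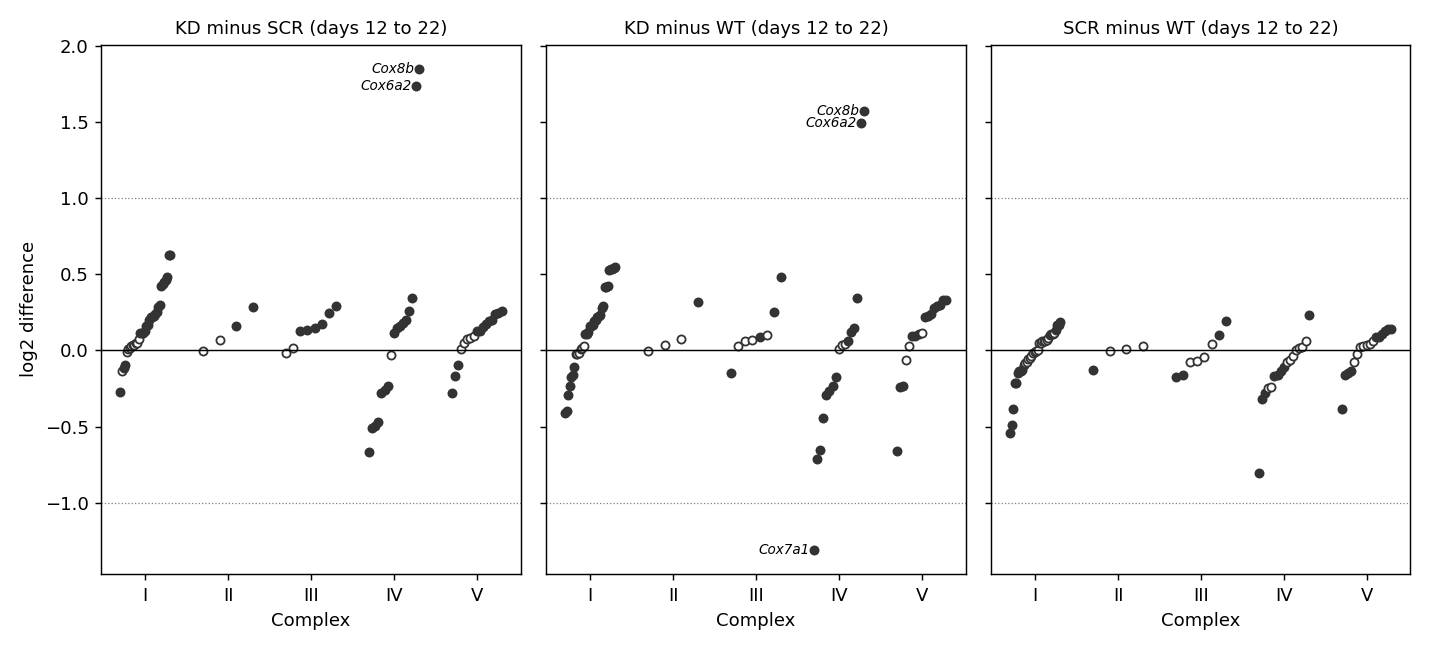
Log2 difference of each member between lines over days 12, 15 and 22, by complex, for KD minus SCR, KD minus WT and SCR minus WT. Filled points passed an adjusted p of 0.05, and dotted lines mark 2-fold. Cox8b and Cox6a2 lie above 1 in both comparisons with KD, Cox7a1 lies below -1 in KD minus WT, and no member passes 2-fold in SCR minus WT.

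WT served as a control without hairpin. Late KD against WT gave 42 members higher and 19 lower at any size, against 42.9% and 38% of genes. By 2-fold Cox8b and Cox6a2 were higher and Cox7a1 was lower, against 11.2% and 6.2% of genes. These comparisons share the KD arrays with those against SCR. After these the highest were Ndufa5 (0.54), Ndufa3 (0.54), Ndufa13 (0.53), Ndufa2 (0.53) and Ndufa8 (0.53) of complex I. The highest of the other complexes were Uqcrh (0.48) in complex III, Sdhb (0.31) in complex II, and Atp5h and Atp5e (both 0.33) in complex V. Late SCR against WT gave 16 higher and 24 lower, against 26.6% and 32.1% of genes, with a median of -0.01.

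In late EBs a group of subunits separated WT from both hairpin lines. Ndufb9, an accessory subunit of complex I, ran from 11.72 through 11.80 to 11.86 on late WT arrays, from 11.22 through 11.24 to 11.30 in SCR and from 11.27 through 11.39 to 11.43 in KD. WT overlapped neither, at differences of -0.54 for SCR and -0.41 for KD. Atp5g2 ran from 11.86 to 12.07 in WT, from 11.41 to 11.75 in SCR and from 11.22 to 11.38 in KD, at -0.38 and -0.66. Ndufa6 ran from 11.20 to 11.40 in WT, from 10.69 to 10.96 in SCR and from 10.82 to 11.11 in KD, at -0.49 and -0.29. All 3 were lower in both hairpin lines at d0 too, Atp5g2 by -0.51 in SCR and -0.30 in KD without overlap. For Ndufb9 and Ndufa6 at d0, WT arrays held 11.97 to 12.04 and 10.75 to 10.79, SCR 11.49 to 11.63 and 10.25 to 10.33, and KD 11.45 to 11.48 and 10.33 to 10.51. The separation did not hold on day 4, when WT and SCR arrays overlapped for all 3. Ndufb9 then held 11.06 to 11.19 in WT and 11.17 to 11.28 in SCR. Atp5g2 held 11.46 to 11.47 and 11.44 to 11.65, and Ndufa6 10.55 to 10.67 and 10.5 to 10.68. None of them passed between KD and WT on that day.

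On day 4 more members were lower than higher in KD against SCR, with a share lower near that of all genes. At any size 9 members were higher and 19 lower, against 26.6% and 23.5% of genes, and the single 2-fold call was Cox7b2, lower, against 5.67% of genes higher and 6.15% lower. Cox7b2 held 2.59, 2.84 and 2.96 in KD and 3.5, 3.73 and 4.28 in SCR, all under or near the lower quartile of the arrays, and WT held 2.78, 2.89 and 3.02, at the level of KD. Cox7a1 differed by -0.96 ± 0.12 (SE, limma adjusted p = 1.4e-08), Ndufv3, a small flavoprotein-arm subunit of complex I, by -0.53 and Cox6b2 by -0.49. Atp5g1 differed by -0.34, Atp5e by -0.26 and Uqcrq by -0.26. Higher were Ndufb11 (0.37), Ndufa13 (0.29) and Ndufa2 (0.25). The number of members passing on this day depended on the array set, as 2 were higher and 4 lower when the array numbered 3 was left out of every group, and Cox7b2 then differed by -0.84. Against WT, Cox7a1 on day 4 differed by -0.13 with a limma adjusted p of 0.77. No member passed at any size in KD against WT on that day, with differences of -0.24 to 0.16. In SCR against WT the members differed by -0.45 to 0.94. Of all genes, 99.6% lay within 2-fold between KD and WT on day 4, and 89.3% between SCR and WT. None of the differences from SCR listed here thus passed against WT.

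The test of the difference between KD and SCR in the change from d0 to late was passed by 2-fold in 3 members. Cox6a2 (1.92 ± 0.25) and Cox8b (1.85 ± 0.18) changed more in KD and Cox7a1 (-1.34 ± 0.14) less, where 11.3% of genes were called higher and 6.9% lower. Below 2-fold, Ndufa8 (0.63), Ndufa3 (0.60), Ndufv3 (0.59) and Uqcrq (0.45) passed upwards and Cox7c (-0.66) and Atp5g2 (-0.49) downwards. For Atp5g2 and Uqcrq the lines already differed at d0 without overlap, and this starting level enters the difference. At d0 Atp5g2 held 11.38 to 11.41 in KD and 11.09 to 11.25 in SCR, and Uqcrq 10.52 to 10.6 and 10.7 to 10.82.

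Other mitochondrial genes were mixed in direction. Between late KD and SCR, where 38.1% of all genes were higher and 39% lower at any size, of 42 measured assembly factors of the chain 11 were higher and 21 lower at any size, with a median of -0.11. Of 24 genes for membrane transport and structure 4 were higher and 15 lower (median -0.20). Of 17 citric acid cycle genes 8 were higher and 6 lower (0.01), and of 18 genes for electron carriers and ubiquinone synthesis 7 were higher and 7 lower (-0.02). Fatty acid oxidation genes differed most, with 13 of 13 higher (median 0.49), of which Acaa2 (1.59), the last thiolase step, and Acadvl (1.29), the long-chain dehydrogenase, passed 2-fold, as 10.1% of all genes did upwards. Of 20 regulators of mitochondrial biogenesis 8 were higher and 10 lower. Ppargc1a, a coactivator of respiratory genes, was higher by 1.98 and Nrf1, the factor whose letters were searched above, differed by -1.10. The 5 measured relatives outside the naming pattern had 2 higher and 3 lower. Among them Cyct, the testis cytochrome c, differed by -2.27 and Slc25a31, a germ cell ADP/ATP carrier, by -1.99. The 1 mitochondrially encoded subunit with a probe set of its own, ND5 of complex I, was higher by 0.26 (limma adjusted p = 0.010).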

How the data were processed

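The authors deposited log2 signals of 54 Affymetrix mouse arrays, and the submitters' processing notes name RMA, Affymetrix Expression Console and Partek 6.6. RMA corrects background, normalizes by quantiles and summarizes probes, so levels of different probe sets are not comparable. The deposited log2 values were used without further scaling. Probe sets were named from the platform annotation, and those with several genes were left out. Groups came from the labels of line and day.

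All 30939 probe sets were fitted with 18 group means in limma 3.58.1 (R 4.3.3, lmFit and eBayes), and p values were adjusted by Benjamini-Hochberg over all probe sets. Calls required an adjusted p under 0.05 and 2-fold. The scripts were tested on simulated data. Of the members, the named ones were the isoforms and partners, called genes, and the 3 largest changes each way per complex. Members and lists were chosen with earlier results of these data known. The number of arrays limits the precision. Same-numbered arrays correlated between -0.40 and 0.50, with all 3 numbers over 0.1 in 6 of 18 pairs of groups, so the numbers were not taken as pairing. Alternatives covered scaling, dim probe sets, probe set choice, arrays used, weights, prior and call rule.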

Additional observations from a re-analysis of the deposited data

Results flagged for a closer look

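In 4 results the change over time differed between KD and SCR by a test of the difference itself (limma interaction, adjusted over all probe sets). From d0 to day 4 the muscle isoform Cox7a1 fell in KD and rose in SCR, a log2 difference of -1.79 ± 0.17 (SE, limma adjusted p = 3.3e-11). From d0 to late EBs its difference was -1.34 ± 0.14 (limma adjusted p = 1.4e-10). In both cases the SCR arrays at d0 lay below those of KD and WT, and this starting level enters the difference. In WT Cox7a1 also fell to day 4, from 6.91, 6.92 and 7.06 on d0 to 6.11, 6.19 and 6.23. To late EBs it rose in WT by 0.96, as it did in SCR. Cox6a2 changed more in KD by 1.92 ± 0.25 (limma adjusted p = 1.8e-08) and Cox8b by 1.85 ± 0.18 (limma adjusted p = 2.7e-11).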

How the results depend on the processing

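Of 210 values of named members, the replicate block, array weights and an intensity trend with a robust prior changed none, and with the block 47 members were higher and 13 lower in late KD against SCR. Most passed at any size and not by 2-fold, and a value is counted here as lost where it no longer passed as it had. Quantile normalization lost 5, fitting the compared arrays alone 16, the mean of probe sets 13, centring 22 and dropping the array numbered 3 (chosen after seeing the data) 57. Leaving out 1 array lost 81 of 3138. Of the 2-fold calls, Cox7a1 in SCR from d0 was lost with centring (0.93) and quantile normalization (0.96), and Cox7b2 on day 4 without array 3 of every group (-0.84), SCR array 3 (-0.82) or KD array 2 (-0.94). The signs turned for Atp5c1 in WT with the mean of probe sets (-0.10), and with centring for Sdhd in KD from d0 (-0.081) and Uqcrc2 in KD against WT (-0.022). The causes were not tested. Probe sets under the lower quartile, such as Cox7b2, limit what can be measured.

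With each array centred, the median from d0 to late was -0.11 in WT, -0.081 in SCR and -0.038 in KD, with 17, 22 and 22 members higher, and in SCR 36 lower and 0 past 2-fold. Centring gave 3 higher and 2 past 2-fold on day 4, a median of 0.059 and 31 higher in late KD against SCR, -0.0078 and 27 against WT, 3 higher in SCR against WT, and 15 higher in the difference of changes. Quantile normalization gave 0 past 2-fold in SCR and 2 on day 4. The mean of probe sets gave an SCR median of 0.0089. The brightest 60% of probe sets, which leave out 4 members, gave 0 past 2-fold on day 4 and 1 in late KD against SCR. The compared arrays alone gave 2 higher and 6 lower on day 4. Array weights gave 1 past 2-fold in WT, and 33 lower and 2 past 2-fold on day 4. Without the array numbered 3 there were 20 higher and 15 lower in WT, 2 higher, 4 lower and 0 past 2-fold on day 4, 1 higher and 11 lower in SCR against WT, and 14 higher and 3 lower in the difference of changes.

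At any size in place of 2-fold, 59 members passed in WT, 58 in SCR, 67 in KD, 28 on day 4, 60 in late KD against SCR, 61 against WT, 40 in SCR against WT and 33 in the difference of changes, and with a test against 1.2-fold 18, 25, 30, 3, 12, 19, 4 and 8. Leaving out 1 array at a time gave 0 to 1 past 2-fold in WT, with 1 reached without array 2 of WT d0 or of WT day 12. On day 4 it gave 4 to 10 higher, 11 to 22 lower and 0 to 2 past 2-fold. The day 4 arrays concerned were SCR arrays 1, 2 and 3 and KD arrays 1 and 2.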
